A study of Homo sapiens with 6 samples.

Results

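The collagen genes are the 44 protein-coding genes with a collagen chain symbol (COL, a type number, A and a chain number) in GENCODE release 29, out of 58395 genes in the deposited table. All 44 were in the table. The rule reads only the gene symbol, though collagens were taken up as a group with earlier results of these data known. The 6 RNA libraries came from M14 (CVCL_1395), an established human melanoma cell line grown without attachment as floating melanospheres. The spheres were dissociated mechanically, stained for CD20, the surface protein encoded by MS4A1, and sorted into CD20+ (CD20-positive) and CD20- (CD20-negative) fractions, with 3 libraries of polyadenylated RNA each. No other treatment is named in the labels. All libraries come from this single line. No label says that the replicates came from separate cultures, and each p-value below therefore reflects sample-to-sample spread that may be only technical.

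Collagens are proteins of the extracellular matrix in which 3 alpha chains wind into a triple helix. Some types are made of identical chains and others need different chains from different genes. Fibrillar types build the fibres of connective tissue, type IV forms the sheet-like network of basement membranes, type VI forms beaded filaments, type VII forms the anchoring fibrils that tie the skin's basement membrane to the dermis, and transmembrane types sit in the cell surface. In melanoma, tumour cells as well as stromal cells can make collagen.

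The plot of levels by library shows that collagen expression was concentrated in few genes. A mean of at least 1 FPKM (fragments scaled by exon length and by a size factor of each library) over the 6 libraries was reached by 20 of the 44 genes, and 13 of these reached 10 FPKM. The 5 highest, COL7A1, COL9A3, COL6A1, COL5A1 and COL3A1, held 58.1% of the mean summed collagen level. Another 24 genes lay under 1 FPKM, of which 16 lay under 0.1 FPKM. COL6A3, COL11A2, COL19A1 and COL22A1 had 0 fragments in the 6 libraries.

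**Figure D1:**
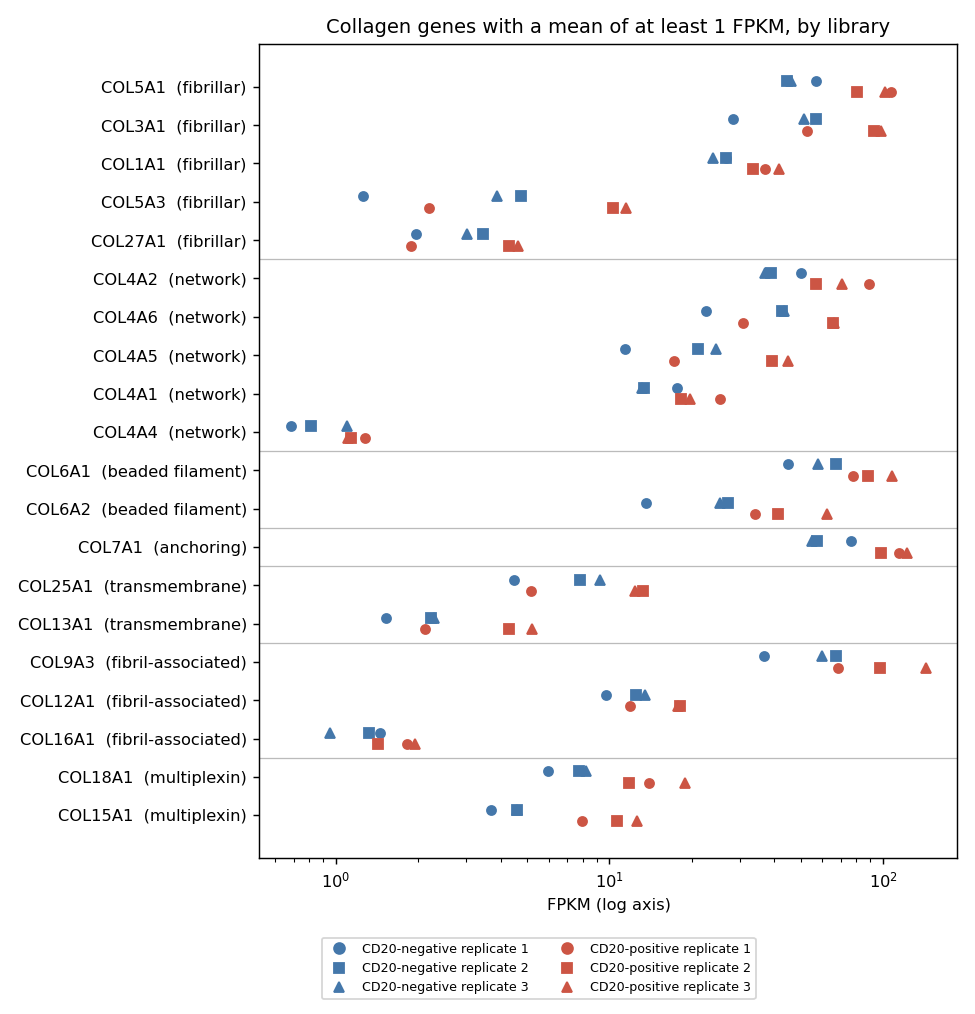
FPKM (log axis) in each library for the 20 collagen genes averaging 1 FPKM or more, ordered by class and then by mean, with 3 CD20-negative libraries in blue and 3 CD20-positive libraries in red. Marker shape gives the replicate number. For 11 of the 20 genes the 3 red points lie above the 3 blue points.

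The libraries held 15651172 to 17915936 recovered fragments each. The library size implied by the deposited FPKM was 1.07 to 1.10 times these fragments in the negative libraries. In the positive libraries it was 0.864 to 1.02 times, so the deposited scale is not a plain division by the fragment total. Compared with such a division, it raises the positive libraries relative to the negative ones. Genes of the mitochondrial genome took 4.25 to 5.73% of fragments in the negative and 11.9 to 20.6% in the positive libraries. MS4A1, the gene behind the sort, was at 0.297 ± 0.0940 FPKM in the negative and 1.16 ± 0.170 FPKM in the positive fraction (SD, n = 3), with 21, 23 and 39 against 91, 75 and 98 fragments. Of 8 melanocyte markers, only PMEL and MITF reached 1 FPKM; SOX10, TYR, DCT and TYRP1 had means under 0.1 FPKM, MLANA measured 0.152 FPKM and TRPM1 was at 0. Of 10 fibroblast markers, only PDGFRB reached 1 FPKM: DCN, LUM, THY1, PDGFRA, FAP and TCF21 had means under 0.1 FPKM and DPT measured 0.918 FPKM and POSTN and PDPN were at 0. The summed fibroblast list ranged from 2.53 to 7.96 FPKM in CD20-negative and from 4.45 to 13.9 FPKM in CD20-positive libraries. PDGFRB made up most of it and was highest in replicate 1 of each fraction, at 7.54 and 13.4 FPKM. The 8 endothelial markers had none at 1 FPKM and sums of 1.03 to 1.36 against 1.57 to 1.99 FPKM, and the 7 macrophage markers had none at 1 FPKM and sums of 0.119 to 0.253 against 0.253 to 0.440 FPKM. Of 7 epithelial markers KRT8, KRT18 and EPCAM reached 1 FPKM, with list sums of 322 to 448 against 389 to 488 FPKM. The part of these other cell type genes in the collagen values was not tested. In sorted bulk RNA, more cells of a collagen-making kind and more collagen RNA per cell cannot be told apart.

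On the deposited scale, the mean log2 change was above 0 in 20 of the 20 collagen genes at 1 FPKM or more, against 50.1% of the 13155 genes tested. Scaling each library to its FPKM total turned 6 of the 20 below 0 and moved the median of all tested genes from 0.00 to -0.41. The median log2 change of the 20 on the deposited scale, on log2(FPKM + 1), was 0.72, against 0.00 over all tested genes. The median log2 ratio of all tested genes was 0.00034, 0.0031 and 0.0053 within pairs 1, 2 and 3. The deposited values were thus already centred between the fractions, and the 0.00 is a trait of that scale. Under the FPKM total the median of the 20 was 0.25, which lay 0.66 above that of all genes. With the total taken without mitochondrial genome genes, 20 of the 20 stayed above 0. Their median was then 0.82, against 0.087 over all tested genes. Summed collagen came to 419, 512 and 488 FPKM in CD20-negative and 706, 792 and 970 FPKM in CD20-positive replicates 1 to 3, so each CD20-positive library exceeded each CD20-negative library. The ratio of the means was 1.74, and 1.68, 1.55 and 1.99 within replicate pairs 1, 2 and 3. These sums and the class sums below are on the deposited scale. The FPKM totals were 276912 to 295179 in the negative and 338125 to 512113 in the positive libraries, highest in CD20-positive replicate 1. Relative to these totals, the collagen sum of CD20-positive replicate 1 lay below that of each CD20-negative library. Those of CD20-positive replicates 2 and 3 lay above each. As a share of all fragments, collagen genes took 0.487% ± 0.0209 in the negative and 0.739% ± 0.117 in the positive fraction (SD, n = 3), and 0.513% ± 0.0255 and 0.886% ± 0.130 of the fragments left without the mitochondrial genome.

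Tests used limma across the 13155 genes at or above 1 FPKM on average, with Benjamini-Hochberg adjustment over all of them and a threshold of 0.05. Without the replicate number in the model, 0 of the 20 collagen genes passed (adjusted p from 0.229 to 0.839), where 0.0076% of all genes were called higher. At an unadjusted p under 0.05 the same fit gave 12 of the 20, against 5.42% of all genes higher. With replicate as a blocking factor (called the paired fit below), 13 of the 20 were called higher and 0 lower, where 3.19% of all genes were called higher and 2.64% lower. The fit without the block was the planned main fit and the paired fit an alternative to it. Its pairs follow the replicate numbers, which no label ties to shared cultures. The changes of single genes below are called from the paired fit only, and a gene said to rise passed in that fit but not in the main one. The paired count was 4 without both libraries of replicate 3 (1.32% of all genes called higher) and 16 without those of replicate 1 (7.74%). It was 0 without those of replicate 2, where 0 of all tested genes were called higher. It was 16 with voom on recovered fragments (5.9%), 12 of 13 with the filter at 10 FPKM (9.93%), 2 with scaling to the FPKM total (0.684%) and 0 with no filter on low values, where again 0 of all genes were called higher.

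Separation between the fractions was complete for 11 of the 20, each CD20-positive library lying above each CD20-negative library, a pattern seen in 8.87% of all tested genes. In the 3 pairs, 19 of the 20 were higher in the CD20-positive library each time, against 21.8% of all tested genes. The exception was COL27A1, which was lower in pair 1. The collagen genes were longer and richer in G and C than most: their median exon length was 9276 bases against 4290, and their median transcript GC content 60.7% against 49.1%. After a correction for length and GC content in each library, the paired fit called 5 of the 20 higher (COL15A1, COL3A1, COL4A5, COL5A1 and COL6A2), where 0.502% of all genes were called higher, and the median log2 change of the 20 was 0.50.

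**Figure D2:**
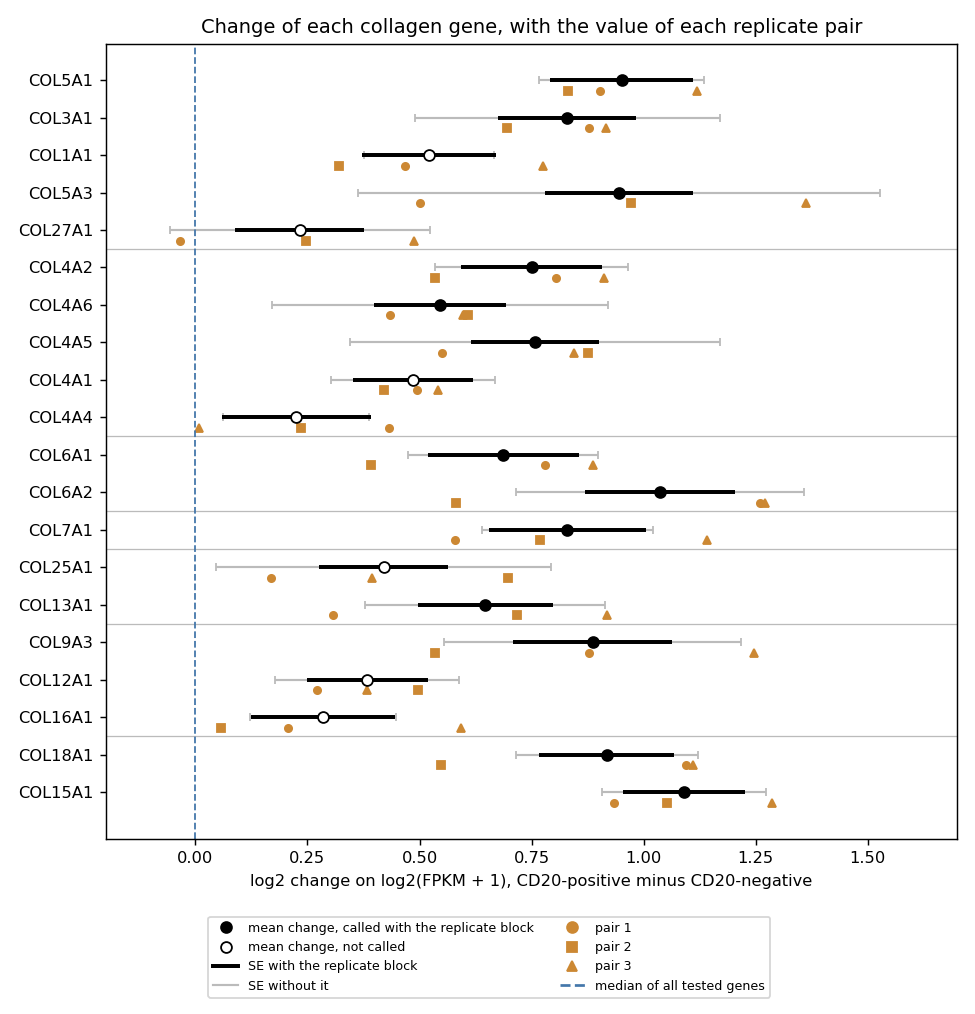
Change of each of the 20 collagen genes on the log2(FPKM + 1) scale, CD20-positive minus CD20-negative, as the mean with its SE in the paired fit (thick bar) and without the block (thin grey bar), and the value of each replicate pair in orange. Filled points mark the 13 genes called in the paired fit, and the dashed line marks the median of all tested genes at 0.00.

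Among the 11 fibrillar genes, 5 reached 1 FPKM and 3 of those, COL5A1, COL3A1 and COL5A3, rose. COL5A1 (ENSG00000130635, GRCh38 chromosome 9, 134641774 to 134844843) encodes the main chain of type V collagen, which starts fibrils and limits their width. It measured 56.8, 44.6 and 46.2 FPKM in CD20-negative replicates 1 to 3 and 107, 80.1 and 102 FPKM in CD20-positive replicates 1 to 3. The lowest CD20-positive value was above the highest CD20-negative one, and the log2 change was 0.95 ± 0.16 (SE, paired fit, adjusted p = 0.00866; 0.232 without the block). COL3A1 (chromosome 2, 188974320 to 189012746) encodes type III collagen, a trimer of identical chains found beside type I in soft tissues. It stood at 28.4, 57.0 and 51.6 FPKM in CD20-negative and 52.9, 93.0 and 98.2 FPKM in CD20-positive replicates. The fractions overlapped because replicate 1 was low in both, while the pair ratios of 1.87, 1.63 and 1.90 were close to each other, and the log2 change was 0.83 ± 0.15 (SE, paired adjusted p = 0.0115).

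COL5A3 (chromosome 19, 9959561 to 10010471), which encodes a less widespread type V chain, was at 1.25, 4.75 and 3.87 FPKM in CD20-negative and 2.19, 10.3 and 11.5 FPKM in CD20-positive replicates. Replicate 1 lay far below the others in both fractions, and the log2 change was 0.94 ± 0.17 (SE, paired adjusted p = 0.0103). COL1A1 (chromosome 17, 50183289 to 50201632), the larger contributor to type I collagen in bone, skin and tendon, did not pass. Its values were 26.6, 26.7 and 23.9 FPKM in CD20-negative and 37.2, 33.5 and 41.6 FPKM in CD20-positive replicates, without overlap, and the log2 change was 0.52 ± 0.15 (SE, paired adjusted p = 0.0625). With the filter at 10 FPKM instead of 1 FPKM the paired fit called it. COL27A1, a fibrillar gene of cartilage, measured 2.81 ± 0.769 FPKM in CD20-negative and 3.60 ± 1.49 FPKM in CD20-positive libraries (SD, n = 3; paired adjusted p = 0.392). Summed fibrillar collagen was 1.79-fold higher, at 127 ± 10.9 against 228 ± 28.7 FPKM, and its share of all collagen was 27.0% ± 0.580 in the negative and 27.8% ± 1.02 in the positive fraction.

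The basement membrane network had 5 of its 6 type IV genes at 1 FPKM or more, and 3 of them, COL4A2, COL4A5 and COL4A6, rose. These genes lie in head-to-head pairs, in which neighbours are transcribed away from each other from start sites close together: COL4A1 with COL4A2 on chromosome 13, COL4A3 with COL4A4 on chromosome 2, and COL4A5 with COL4A6 on the X chromosome. COL4A2 (chromosome 13, 110305812 to 110513209) measured 50.4, 39.0 and 37.2 FPKM in CD20-negative and 88.7, 56.9 and 70.9 FPKM in CD20-positive replicates. The fractions did not overlap, and the log2 change was 0.75 ± 0.16 (SE, paired adjusted p = 0.0186). Its neighbour COL4A1 (110148963 to 110307233), which supplies most chains of the common type IV trimer, measured 17.7, 13.3 and 13.2 FPKM in CD20-negative and 25.4, 18.2 and 19.7 FPKM in CD20-positive replicates. Those values did not overlap either, but the difference of 0.49 ± 0.13 in log2 (SE, paired adjusted p = 0.0537) missed the threshold, and passed it at the 10 FPKM filter. Under the FPKM total it was -0.0054.

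The pair on the X chromosome followed a different order of replicates. COL4A5 (108439844 to 108697545), whose chain occurs in kidney and skin basement membranes, measured 11.4, 21.0 and 24.6 FPKM in CD20-negative and 17.2, 39.4 and 44.9 FPKM in CD20-positive replicates. COL4A6 (108155607 to 108439497), which joins COL4A5 chains in a trimer of skin and smooth muscle, measured 22.6, 42.8 and 43.4 FPKM against 30.8, 65.7 and 66.1 FPKM. In both genes replicate 1 was lowest in each fraction and the fractions overlapped. Their log2 changes were 0.76 ± 0.14 (SE, paired adjusted p = 0.0122) and 0.55 ± 0.15 (SE, paired adjusted p = 0.0491). With the FPKM total these were 0.27 (paired adjusted p = 0.274) and 0.043 (paired adjusted p = 0.855), and with the length and GC correction COL4A5 passed (adjusted p = 0.0473) and COL4A6 did not (adjusted p = 0.0730). The pair on chromosome 2 was low: COL4A4 measured 0.866 ± 0.211 against 1.17 ± 0.0887 FPKM (SD, n = 3; paired adjusted p = 0.482), and COL4A3 had a mean of 0.216 FPKM.

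The 300 bases before the COL4A5 start are shown because COL4A5 and COL4A6 both rose in the paired fit and their starts are close together. They are most of the 379 bases between the RefSeq starts, without those next to the COL4A6 start, and cover chrX:108439538-108439837 on the plus strand (RefSeq, GRCh38.p14), with no exon annotated in them; capitals mark CCAAT or its reverse complement ATTGG.
COL4A5, upstream: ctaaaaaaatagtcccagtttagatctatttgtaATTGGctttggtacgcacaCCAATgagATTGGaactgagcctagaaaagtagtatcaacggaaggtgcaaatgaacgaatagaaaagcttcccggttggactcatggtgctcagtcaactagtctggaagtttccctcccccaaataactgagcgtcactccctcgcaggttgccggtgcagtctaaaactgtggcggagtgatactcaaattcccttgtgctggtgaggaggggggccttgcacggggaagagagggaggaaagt
These bases held 3 matches to CCAAT on either strand and 0 to GGGCGG or TATAAA. The CCAAT motif occurred in 34.6% of the 35116 RefSeq promoter windows of the same length, 300 bases, and in 14 of the 44 windows that belong to the 32 collagen genes with an entry. Those windows take in 250 bases before the start and 50 after it, so they differ in position from the stretch shown. In their 250 bases before the start, CCAAT occurred in 32.0% of all windows and in 12 of the 44 collagen windows.

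COL7A1 was the only anchoring gene and had the highest mean of the collagens. Its product, type VII collagen, is a trimer of identical chains that keratinocytes and fibroblasts deposit under the epidermis. COL7A1 (ENSG00000114270, chromosome 3, 48564073 to 48595267) measured 76.6, 57.5 and 54.8 FPKM in CD20-negative and 115, 98.7 and 122 FPKM in CD20-positive replicates. The lowest CD20-positive value exceeded the highest CD20-negative value, and the log2 change was 0.83 ± 0.18 (SE, paired adjusted p = 0.020; 0.286 without the block).

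The 250 bases before its start (chr3:48595330-48595579, minus strand, RefSeq, GRCh38.p14) are shown since this gene had the highest mean of the collagens and no annotated exon overlaps them. The same stretches of COL5A1, COL6A2 and COL15A1 were also read. They are not shown because 29, 15 and 250 of their bases lie in annotated exons. Capitals mark GGGCGG or its reverse complement CCGCCC, and TATAAA or its reverse complement TTTATA.
COL7A1: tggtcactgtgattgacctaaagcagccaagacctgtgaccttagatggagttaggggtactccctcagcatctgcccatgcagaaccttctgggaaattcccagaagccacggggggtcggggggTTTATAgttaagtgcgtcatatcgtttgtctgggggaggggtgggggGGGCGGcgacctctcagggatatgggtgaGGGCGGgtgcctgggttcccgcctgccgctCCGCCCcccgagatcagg
The stretch held 3 matches to GGGCGG, 1 to TATAAA and 0 to CCAAT on either strand. In the 250 bases before the start, GGGCGG occurred in 42.6% and TATAAA in 10.7% of all windows, and in 24 and 8 of the 44 collagen windows.

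Type VI, the beaded filament class, had COL6A1 and COL6A2 expressed, which lie near each other on chromosome 21, and both rose. COL6A1 (45981737 to 46005050) measured 45, 67.1 and 58.0 FPKM in CD20-negative and 77.9, 88.4 and 108 FPKM in CD20-positive replicates, a change of 0.69 ± 0.17 in log2 units (SE, paired adjusted p = 0.0362). COL6A2 (46098097 to 46132849) went from 13.6, 27.2 and 25.4 FPKM to 34.0, 41.2 and 62.6 FPKM, a change of 1.04 ± 0.17 in log2 units (SE, paired adjusted p = 0.00729). Neither gene showed overlap between the fractions, and replicate 1 was the lowest in each fraction for both. COL6A2 and COL15A1 were the collagen genes still called with scaling to the FPKM total, at log2 changes of 0.54 (adjusted p = 0.0309) and 0.65 (adjusted p = 0.0317).

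Both multiplexin genes, whose products sit at the basement membrane zone and carry fragments known to restrain vessel growth, rose, and their summed level was 2.18-fold higher, at 11.6 ± 1.71 against 25.3 ± 5.43 FPKM (SD, n = 3). COL15A1 (chromosome 9, 98943179 to 99070792) showed the highest log2 change of the 20, 1.09 ± 0.14 (SE, paired adjusted p = 0.00222), from 3.69, 4.61 and 4.57 FPKM in CD20-negative to 7.95, 10.6 and 12.6 FPKM in CD20-positive replicates. COL18A1 (chromosome 21, 45405137 to 45513720), the source of endostatin, went from 5.98, 7.77 and 8.24 FPKM to 13.9, 11.8 and 18.9 FPKM, which is 0.92 ± 0.15 on the log2 scale (SE, paired adjusted p = 0.00768). The fractions did not overlap in either gene. Of the exon length of COL18A1, 16.4% is shared with SLC19A1 on the opposite strand, which had a mean of 6.73 FPKM. No source used here says if strand entered the counting, so the COL18A1 value is uncertain. The multiplexin share of all collagen was 2.45% ± 0.162 in the negative and 3.06% ± 0.209 in the positive fraction (SD, n = 3).

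Fibril-associated collagens attach to the surface of fibrils, and 3 of their 10 genes reached 1 FPKM. COL9A3 (chromosome 20, 62816244 to 62841159), a chain of the cartilage collagen type IX, measured 36.7, 67.1 and 59.9 FPKM in CD20-negative and 68.4, 97.6 and 143 FPKM in CD20-positive replicates. It rose by 0.89 ± 0.18 on the log2 scale (SE, paired adjusted p = 0.0156), although the lowest CD20-positive value lay just above the highest CD20-negative value. COL12A1 (chromosome 6, 75084326 to 75206051), which associates with type I fibrils, measured 9.69, 12.5 and 13.5 FPKM against 11.9, 18 and 17.9 FPKM, overlapped between fractions and did not pass (log2 change 0.38 ± 0.13 SE, paired adjusted p = 0.117). COL16A1 measured 1.24 ± 0.259 against 1.73 ± 0.272 FPKM (SD, n = 3; paired adjusted p = 0.338).

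Of the 4 transmembrane genes, COL25A1 and COL13A1 reached 1 FPKM. COL13A1 (chromosome 10, 69801867 to 69964275), a surface collagen of adhesion sites and the neuromuscular junction, rose from 1.53, 2.22 and 2.28 FPKM in CD20-negative to 2.12, 4.29 and 5.19 FPKM in CD20-positive replicates (log2 change 0.65 ± 0.15 SE, paired adjusted p = 0.0297). Replicate 1 of the CD20-positive fraction lay within the CD20-negative range. COL25A1, a collagen first found in amyloid plaques, measured 7.16 ± 2.41 against 10.3 ± 4.44 FPKM (SD, n = 3) and did not pass (log2 change 0.42 ± 0.14 SE, paired adjusted p = 0.111). COL17A1, the hemidesmosome collagen of keratinocytes, had 9 to 37 fragments per library and a mean of 0.239 FPKM. It was listed higher in each CD20-positive library (0.299, 0.311 and 0.335 FPKM) than in any CD20-negative library (0.232, 0.0698 and 0.189 FPKM), below the level tested. COL23A1 had 1 fragment in the 6 libraries.

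Chains of the same type differed widely in level, as the plot of chains by type shows. COL1A2, which supplies the partner chain of COL1A1 in the usual type I trimer, had 3 fragments in all 6 libraries together, at most 2 in any library. Per length, COL1A1 stood at least 1757-fold above COL1A2 in each library, counting COL1A2 at the level of 3 fragments per library. COL6A3, the partner that COL6A1 and COL6A2 need for the usual type VI trimer, had 0 fragments in each library, which allows a level of at most 0.00772 to 0.0101 FPKM by counting error alone. COL6A1 was at least 5531-fold above that level in each library and COL6A2 at least 1678-fold. The further type VI genes COL6A5 and COL6A6 had at most 21 and 3 fragments per library.

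COL5A2, the usual type V partner of COL5A1, had 5 to 29 fragments per library, and COL5A1 exceeded it per length by 273-fold to 1159-fold. COL5A2 lies next to COL3A1 on chromosome 2, and COL3A1 exceeded it by 136-fold to 1455-fold. In type IX, COL9A2 had 13 to 22 fragments per library and lay 194-fold to 508-fold below COL9A3, and COL9A1 had 2 fragments in all, so that COL9A3 stood at least 1667-fold above the level of 3 fragments. These partner genes were thus near or at 0 in CD20-negative and CD20-positive libraries alike.

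**Figure D3:**
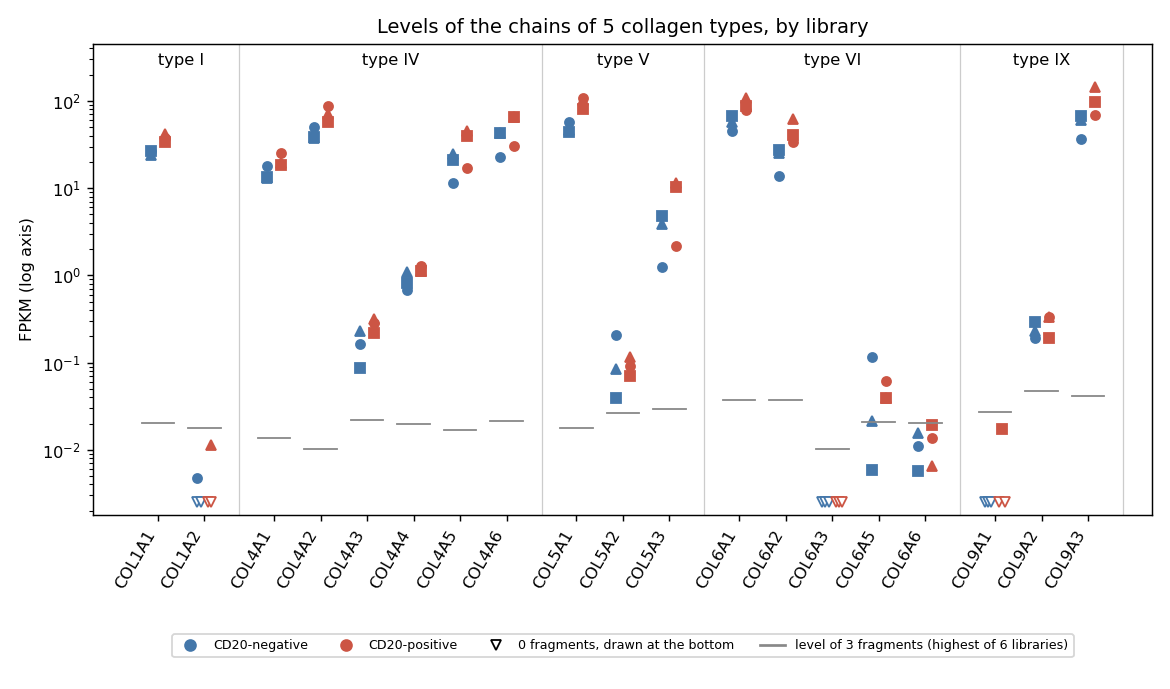
FPKM (log axis) of the chains of collagen types I, IV, V, VI and IX in the 3 CD20-negative (blue) and 3 CD20-positive (red) libraries, with circles, squares and triangles for replicates 1, 2 and 3. Open triangles at the bottom are libraries with 0 fragments and grey lines give the level of 3 fragments in the library where it is highest; COL1A2, COL6A3 and COL9A1 lie at or under that line while COL1A1, COL6A1, COL6A2 and COL9A3 lie above 10 FPKM.

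Ratios between expressed partner chains were compared between the fractions for the 4 of 12 listed pairs with both genes at 1 FPKM or more. COL4A1 over COL4A2 was 0.352, 0.342 and 0.355 in CD20-negative and 0.286, 0.320 and 0.278 in CD20-positive replicates, so the ratio was lower in each CD20-positive library. The difference was -0.25 on the log2 scale (2-sided exact permutation test, p = 0.1, 0.267 adjusted over the 4 ratios), where 0.1 is the lowest p this test can give with 3 against 3 libraries. COL4A2 exceeded COL4A1 in each library, and COL4A1 also had fewer fragments before division by length, 0.212 to 0.271 of those of COL4A2. COL4A5 over COL4A6 was 0.506, 0.492 and 0.566 against 0.558, 0.60 and 0.679 (exact permutation test, p = 0.2). COL6A1 over COL6A2 was 3.30, 2.47 and 2.29 against 2.29, 2.15 and 1.73 (exact permutation test, p = 0.2). COL5A1 over COL5A3 was 45.4, 9.39 and 11.9 against 49.0, 7.79 and 8.81 (exact permutation test, p = 0.7), and here replicate 1 stood apart in both fractions while the fractions did not differ beyond that spread. No ratio passed, and none could have passed this test, which also leaves the pairing out. Within replicate pairs 1, 2 and 3 the log2 differences were -0.30, -0.098 and -0.35 for COL4A1 over COL4A2, 0.14, 0.29 and 0.26 for COL4A5 over COL4A6, and -0.53, -0.20 and -0.40 for COL6A1 over COL6A2. Each of these 3 ratios thus kept its direction in 3 of 3 pairs, while COL5A1 over COL5A3 did not (0.11, -0.27 and -0.44). How often ratios of other genes keep their direction across the pairs was not counted, so no shift is read from this.

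Replicate 1 split the collagen genes into groups that moved in opposite ways. In 12 of the 20, replicate 1 was the lowest library of both fractions, against 27.6% of all tested genes: COL3A1, COL5A3, COL27A1, COL4A5, COL4A6, COL6A1, COL6A2, COL9A3, COL12A1, COL13A1, COL25A1 and COL15A1. In 3 of the 20, COL4A1, COL4A2 and COL5A1, it was the highest of both fractions, against 31% of all tested genes. The COL4A1 level in replicate 1 was 1.34 times the mean of replicates 2 and 3 in both fractions, and that of COL4A2 1.32 and 1.39 times. For COL4A5 the same ratios were 0.502 and 0.408, for COL4A6 0.524 and 0.468, and for COL5A3 0.291 and 0.201. These type IV pairs thus differed in the direction of replicate 1 while the mean log2 changes between fractions were above 0 in these 4 genes (COL4A1 excepted under the FPKM total). What set replicate 1 apart is not given in the labels, and its part in these levels was not tested.

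**Figure D4:**
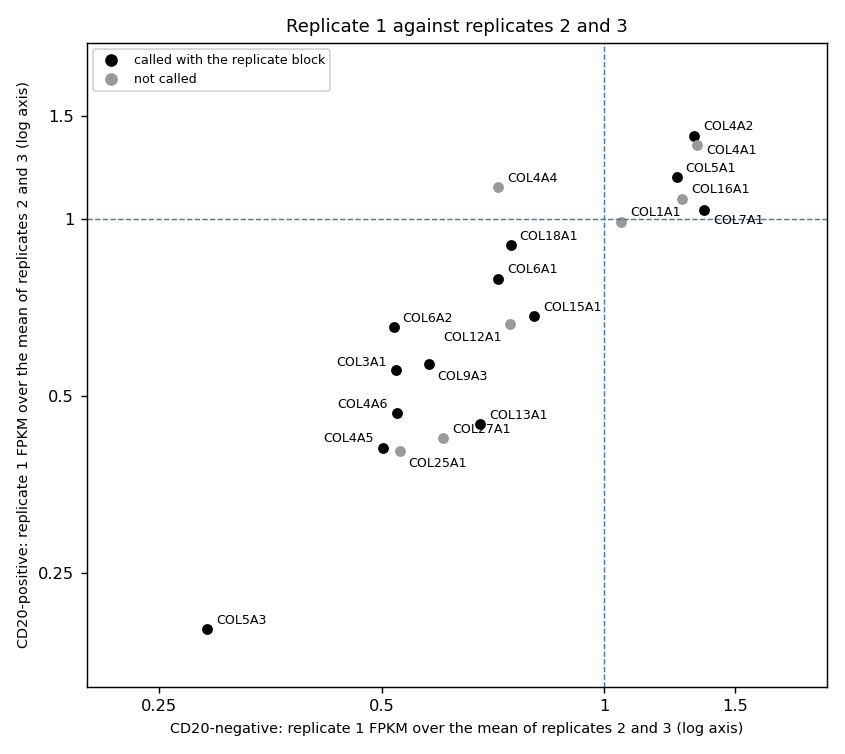
FPKM in replicate 1 divided by the mean of replicates 2 and 3, in CD20-negative (horizontal, log axis) and CD20-positive libraries (vertical, log axis), for the 20 collagen genes. COL4A1, COL4A2, COL5A1, COL7A1 and COL16A1 lie above 1 on both axes, COL5A3 lies lowest at 0.291 and 0.201, and black points are the 13 genes called in the paired fit.

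Of the 24 genes under 1 FPKM, COL2A1, the cartilage fibril gene, was the highest, with a mean of 0.844 FPKM. Its values were 0.527, 0.673 and 0.766 FPKM in CD20-negative and 0.874, 0.955 and 1.27 FPKM in CD20-positive replicates, without overlap. COL20A1, a fibril-associated gene, was listed lower in each CD20-positive library, with 18, 21 and 21 against 11, 9 and 14 fragments. The hexagonal network genes COL8A2, COL8A1 and COL10A1 had means of 0.780, 0.440 and 0.0817 FPKM, and COL26A1 one of 0.428 FPKM. In 10 of the 24 no library had more than 3 fragments: COL1A2, COL6A3, COL6A6, COL9A1, COL11A2, COL19A1, COL21A1, COL22A1, COL23A1 and COL28A1, and the remaining low genes included COL24A1 with at most 4, COL11A1 with at most 4 and COL14A1 with at most 9 fragments in a library. None of these 24 entered the tests at the 1 FPKM filter. COL2A1, COL17A1 and COL20A1 are given by library because their fractions did not overlap, a choice made after their values were seen. How often genes under 1 FPKM show no overlap was not counted over all genes, so no change is read from these patterns.

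Genes that make, process, bind and degrade collagen were read from lists of other genes of the pathway. Over all tested genes the paired fit called 3.19% higher and 2.64% lower, with a median log2 change of 0.00, and with lists this short 1 or 2 calls are few to read against those shares. Of the enzymes and chaperones that modify and fold chains, 3 of 18 tested genes rose (3.19% over all genes) and 0 fell (2.64%), with a median log2 change of 0.41. The lysyl hydroxylase gene PLOD1 went from 24.3 ± 2.44 to 37.8 ± 3.94 FPKM (SD, n = 3; paired adjusted p = 0.0344), the prolyl 3-hydroxylase gene P3H1 from 8.41 ± 0.212 to 12.8 ± 2.04 FPKM (paired adjusted p = 0.0428), and the prolyl 4-hydroxylase gene P4HA2 from 5.33 ± 0.621 to 10.9 ± 3.55 FPKM (paired adjusted p = 0.00963). These enzymes add the hydroxyl groups that stabilise the helix and allow crosslinks. In secretion and propeptide cleavage, 1 of 11 rose (3.19% over all genes) and 0 fell, with a median of 0.094: BMP1, the protease that trims the C-terminal propeptide of fibrillar chains, went from 21.2 ± 2.47 to 32.9 ± 3.69 FPKM (paired adjusted p = 0.0384). Its enhancer gene PCOLCE measured 181 ± 60.8 against 300.5 ± 91.6 FPKM (paired adjusted p = 0.0588), and TMEM39A 5.57 ± 0.804 against 7.03 ± 0.625 FPKM (paired adjusted p = 0.265).

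Among crosslinking genes 2 of 7 rose (3.19% over all genes) and 0 fell, with a median of 0.40. LOXL2, a lysyl oxidase, went from 31.2 ± 7.97 to 73.5 ± 27.1 FPKM (paired adjusted p = 0.00302), and LOX, named after its values were seen, from 4.92 ± 2.77 to 14.2 ± 8.91 FPKM (paired adjusted p = 0.00958). LOXL4 and LOXL1 did not pass (paired adjusted p = 0.0802 and 0.117). Of the receptor genes 2 of 7 rose (3.19% over all genes) and 0 fell, with a median of 0.38: MRC2, which takes up collagen fragments for breakdown, went from 46.2 ± 9.80 to 90.0 ± 36.7 FPKM (paired adjusted p = 0.0159), and ITGA10, a collagen-binding integrin chain, from 6.70 ± 1.56 to 11.7 ± 3.49 FPKM (paired adjusted p = 0.0184). ITGA2 measured 7.51 ± 1.67 against 11.7 ± 3.11 FPKM (paired adjusted p = 0.255). Of the degradation genes 1 of 3 tested rose (3.19% over all genes), MMP2, a gelatinase that also cleaves type IV collagen, from 47.7 ± 31.5 to 81.9 ± 58.9 FPKM (paired adjusted p = 0.0213). Its fractions overlapped widely. MMP1 and CTSB did not pass (paired adjusted p = 0.472 and 0.382). Without the block 0 genes of these 5 lists passed.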

How the data were processed

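Polyadenylated RNA of 3 CD20-positive and 3 CD20-negative libraries was analysed. The deposited values are FPKM made by the authors, a unit taken from the values: times the GENCODE release 29 exon length, 98.1 to 98.6% of low values (up to 20 reads, tolerance 0.02) were whole multiples of 1 step per library. These steps gave the recovered fragments and the library size that each scale implies, which differed from the fragment total. HISAT2, featureCounts 1.5.0 and DESeq2 with GRCh38 are named, per the submitters' processing notes; their settings were not found in the labels or file headers. Of 58395 identifiers, 58275 matched GENCODE.

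The 13155 genes averaging 1 FPKM or more were tested on log2(FPKM + 1), which understates changes of low genes, with limma 3.58.1 in R 4.3.3 (trend, robust prior), CD20-positive minus CD20-negative, threshold 0.05 after Benjamini-Hochberg adjustment. The script was tested on simulated data. Deviations from group means of same-numbered libraries correlated at 0.675, 0.238 and 0.509, so the replicate numbers were taken as pairs and a fit with the replicate block was run too. Replicates 2 and 3 correlated at 0.426 and 0.396 when crossed, above the 0.238 of replicate 2, so this check does not settle their pairing. The pairing follows the replicate numbers, and no label says that a number marks a shared culture. Each call of the paired fit depends on that assumption. Residual degrees of freedom were 2 per gene with the block, and the median prior was 10.2.

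The collagen members and all lists were chosen with earlier results of these data known. Full values were given for collagen genes averaging 10 FPKM or more or called in either fit, and up to 3 genes per pathway list with the smallest p. Floors and bounds use 3 fragments and cover counting error only. Promoter sequences are from RefSeq (GRCh38.p14), trimmed to bases outside GENCODE exons; 32 of 44 genes had an entry. Alternatives covered the filter, pseudocount, scaling, prior, block, voom, left-out libraries and a length and GC correction. One of the marker lists is not reported here.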

Additional observations from a re-analysis of the deposited data

How the results depend on the processing

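The GC and length correction, and the replicate block with quantile normalisation or with the total without mitochondrial genome genes, were chosen after seeing the data. Without the block, 0 collagen genes were called under each alternative other than leaving out CD20-positive replicate 1, so leaving out 1 library gave 0 to 2 (COL13A1 and COL15A1 in that case). With the replicate block the count was 13; it was 12 with the filter at 10 FPKM, 13 with quantile normalisation, 15 with the total without mitochondrial genome genes, 16 with voom, 5 with the GC and length correction, 2 with the FPKM total and 0 with no filter. Leaving out both libraries of a replicate gave 0 (replicate 2), 4 (replicate 3) and 16 (replicate 1). For these counts the cause was not tested. The block changed the call of 13 of the 20 genes, named in the report. Scaling to the FPKM total turned 6 genes, with or without the block, none called before: COL4A1 (-0.0054), COL16A1 (-0.020), COL25A1 (-0.025), COL4A4 (-0.033), COL12A1 (-0.094) and COL27A1 (-0.13). In the other settings run each of the 20 that was tested (13 at the 10 FPKM filter) kept a log2 change above 0. The median of the 20 ranged from 0.25 with the FPKM total to 0.84 without CD20-positive replicate 1. For the ratio of COL5A1 to COL5A3, the log2 difference of -0.20 turned to 0.11 within pair 1 and ranged from -1.05 to 0.50 when 1 library was left out. The other 3 ratios kept their direction. Depth limits the 24 collagen genes under 1 FPKM, 10 of which had at most 3 fragments in each library.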
